A study of Homo sapiens with 4 samples.

Results

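The genes described here encode 10 transporters that carry bile acids, lipids and drugs across the membranes of the hepatocyte, the main cell of the liver. They were taken as a fixed list of gene symbols, and the chromatin of each gene was read in the gene and 50000 bp on each side. All 10 were found among 19974 protein-coding genes on chromosomes 1 to 22 and X. The cells were MHCC97L, an established human hepatocellular carcinoma line labelled wild type (WT) and left untreated. They grew as a plain culture in serum-containing medium, and not as polarised liver tissue. ChIP-seq, the sequencing of DNA pulled down with an antibody to a chromatin mark, was done once for each of 3 histone marks, and 1 input library completed the 4 samples. The input was not analysed here.

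H3K4me3 is a mark of gene starts, H3K27ac a mark of active starts and enhancers, and H3K4me1 a mark of enhancers and of the flanks of starts. For each mark the authors deposited a list of peak summits. A summit is the position of the highest signal in a peak, and its score is the −log10 of the peak caller's p-value or q-value. The lists held 46078 H3K4me3, 70028 H3K27ac and 86366 H3K4me1 summits on the chromosomes used, with median scores of 8.23, 8.40 and 4.58. Scores rank summits within a list and are not compared as signal between marks. Read depth is unknown. A bulk culture cannot tell a mark in few of its cells from a weak mark in all of them. Without replicates no test of a difference was possible, so the values describe these 3 libraries.

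A hepatocyte takes up bile acids and drugs from the blood across its basolateral membrane and secretes them into bile across its canalicular membrane. SLC10A1 (NTCP) is the sodium-dependent uptake carrier for conjugated bile acids, and SLCO1B1 and SLCO1B3 are organic anion uptake carriers. ABCB11 is the bile salt export pump, ABCB4 moves phosphatidylcholine into bile, ABCG5 and ABCG8 form a sterol exporter together, ABCC2 exports conjugates such as bilirubin glucuronide, and ABCB1 is the multidrug exporter P-glycoprotein. ABCC3 exports conjugates back across the basolateral membrane and is known to rise in cholestasis. In mature liver the uptake carriers and ABCB11 depend on hepatocyte nuclear receptors and lineage factors.

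ABCC3 carried all 3 marks at its boundaries, while 5 of the 10 genes, the uptake genes SLC10A1, SLCO1B1 and SLCO1B3 and the canalicular genes ABCG5 and ABCG8, had no summit of any mark at their starts. ABCC2, ABCB1, ABCB4 and ABCB11 had some of the marks there. The start of a gene was taken from RefSeq where it was listed, which covered 8 of the 10 genes. For ABCB4 and ABCC3 no start was listed and either gene boundary was used instead. H3K4me3 lay within 1000 bp of the start in 4 of the 10 genes (ABCC2, ABCB1, ABCB4 and ABCC3), against 59.2% of all protein-coding genes. H3K27ac was found there in 3 (ABCB1, ABCB11 and ABCC3), against 55.0%, and H3K4me1 in 2 (ABCC2 and ABCC3), against 8.50%. H3K4me3 and H3K27ac lay at the same start in 2, ABCB1 and ABCC3, against 50.0%. With 10 genes these counts describe the genes named and are not read as a property of the list.

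Counted anywhere in the gene, H3K4me3 was found in 5 members (64.7% of all protein-coding genes), H3K27ac in 6 (58.6%) and H3K4me1 in 7 (38.0%). SLC10A1 and SLCO1B1 were the 2 members with none of the 3 marks anywhere in the gene, a state shared by 28.4% of all protein-coding genes. In the gene and 50000 bp on each side, H3K4me3 was found for 9 members (86.8%), H3K27ac for 8 (84.8%) and H3K4me1 for 7 (71.1%). All 6 canalicular genes had H3K27ac and H3K4me1 in this window. Of the 4 basolateral genes, SLC10A1 and ABCC3 had H3K27ac and ABCC3 had H3K4me1.

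**Figure D1:**
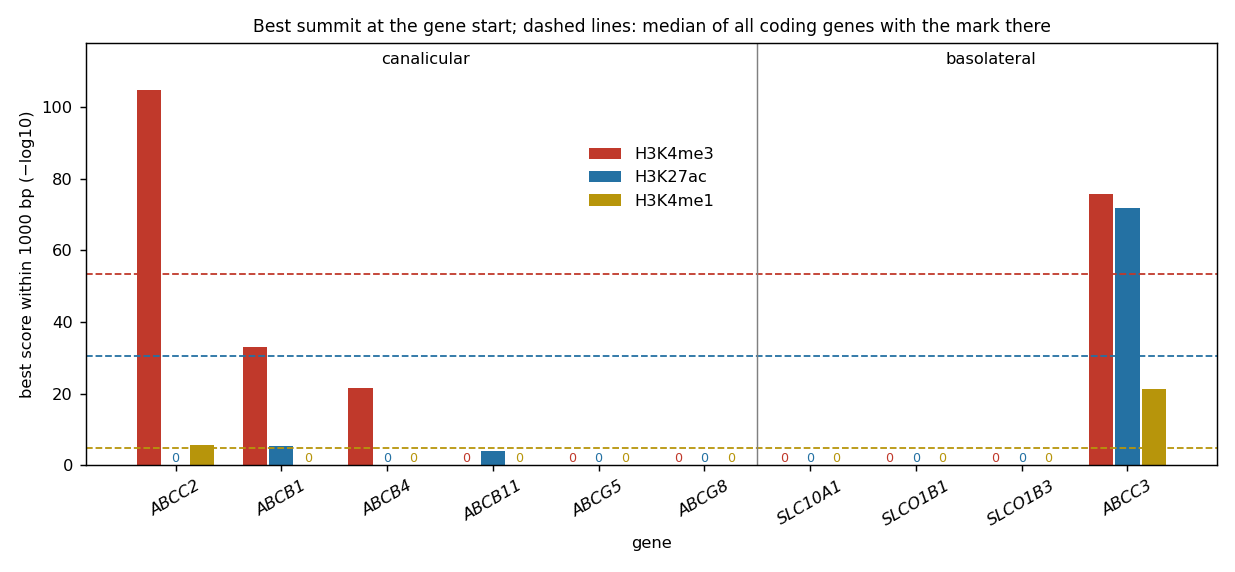
Best summit score (−log10, y axis) within 1000 bp of the start for each transporter gene (x axis), by mark; 0 stands for no summit, and dashed lines are the medians of all protein-coding genes that carry the mark there. ABCC2 (104.7) and ABCC3 (75.9) exceed the H3K4me3 median of 53.4, ABCB1 (32.9) and ABCB4 (21.5) lie below it, and the other 6 genes have no H3K4me3 summit; for ABCC3 and ABCB4 either boundary counts, and the ABCC3 H3K4me1 value of 21.3 is from its upper boundary.

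ABCC2 had the strongest start of the group and an acetylated stretch in front of it. The gene (identifier 1244) lies on chromosome 10 from 99782640 to 99852594 of hg38 and starts at the lower coordinate. An H3K4me3 summit 279 bp inside the gene scored 104.7, higher than 99.4% of the H3K4me3 list. H3K27ac lay on both sides of it, at 7113 bp before the start (127.0), 2972 bp before it (116.0) and 1096 bp after it (81.5). These scores exceed 99.7%, 99.5% and 97.6% of the H3K27ac list. The last of them fell just outside the 1000 bp limit, so that ABCC2 did not count as carrying H3K27ac at its start. The strongest H3K4me1 summit of the window (15.4) lay 4332 bp before the start, between the first pair of H3K27ac summits, and another (5.68) lay 905 bp before it. The remaining H3K27ac summits of the gene itself scored lower, from 1.44 to 9.67, on both sides of the list median of 8.40. At the far edge of the window CUTC, a neighbouring coding gene, accounted for an H3K27ac summit of 72.2 and an H3K4me3 summit of 50.3.

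The 250 bases before the ABCC2 start are shown because they lie beside the highest H3K4me3 score of the group and yet hold a single CpG dinucleotide. They are printed 5′ to 3′ from RefSeq (GRCh38.p14, plus strand, chr10:99782390-99782639), and no capitals appear because none of the 8 motifs searched below matched.

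ABCC2: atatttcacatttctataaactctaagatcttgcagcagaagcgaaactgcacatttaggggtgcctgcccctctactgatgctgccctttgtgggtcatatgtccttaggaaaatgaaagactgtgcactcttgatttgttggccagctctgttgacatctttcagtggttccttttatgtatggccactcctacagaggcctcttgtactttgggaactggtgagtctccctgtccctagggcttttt

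ABCB1 was marked at its inner start and not at its outer one. It is the longest of the 10 genes (identifier 5243, chromosome 7, 87503017 to 87713295, 210279 bp, minus strand), and RefSeq lists 2 starts that lie 112411 bp apart. At the inner start, position 87600884, an H3K4me3 summit of 32.9 lay 325 bp and an H3K27ac summit of 5.38 lay 150 bp inside the gene. Both are below the medians of protein-coding genes that carry these marks at a start, 53.4 and 30.5. At the outer start, position 87713295, the nearest H3K4me3 summit was 84846 bp away and the nearest H3K27ac summit 112561 bp away. The highest H3K4me3 score in the gene, 35.3, lay 51 bp from a boundary of RUNDC3B, a coding gene that overlaps ABCB1. Inside ABCB1, 31691 bp after the inner start, H3K27ac reached its highest score in the window, 15.5, with H3K4me3 75 bp away. H3K4me1 in the window was limited to 5 summits, with scores from 2.28 to 6.30.

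The 250 bases before the inner ABCB1 start (minus strand, chr7:87600885-87601134) hold 12 CpG dinucleotides and are shown as the marked start that is richest in CpG among the members with a listed start. Capitals mark a CCAAT box and a match to the AP-1 search letters (TGATTCA), which overlap by 1 base. Further on they mark a CCAAT box on the opposite strand.

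ABCB1 inner start: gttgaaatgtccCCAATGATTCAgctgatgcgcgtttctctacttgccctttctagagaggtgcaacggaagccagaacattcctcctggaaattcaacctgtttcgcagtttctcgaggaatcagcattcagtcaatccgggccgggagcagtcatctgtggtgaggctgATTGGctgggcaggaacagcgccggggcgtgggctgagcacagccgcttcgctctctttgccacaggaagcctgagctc

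ABCB4, the phospholipid flippase gene next to ABCB1, carried H3K4me3 without H3K27ac within 1000 bp of a boundary, and had H3K27ac further inside the gene. It lies 26990 bp from ABCB1 (identifier 5244, chromosome 7, 87365896 to 87476027). An H3K4me3 summit of 21.5 lay 527 bp inside its upper boundary, the one that faces ABCB1. The H3K27ac summit nearest to that boundary, of 10.3, lay 10421 bp from it. At the lower boundary the nearest H3K27ac summit, of 8.25, was 4819 bp away. A second H3K4me3 summit, of 12.7, lay inside the gene, 349 bp from the H3K27ac summit of 10.3 and 129 bp from another of 4.51. The highest H3K4me3 score of its window, 64.4, lay 271 bp from a boundary of CROT, a carnitine acyltransferase gene that overlaps the lower end of ABCB4, with H3K27ac of 37.3 beside it. H3K27ac of 40.2, the highest in the window, lay 26218 bp beyond CROT. The windows of ABCB1 and ABCB4 share part of their sequence, and the 2 H3K27ac and 2 H3K4me3 summits at the upper end of ABCB4 count in both.

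The window of ABCB11 held many enhancer-type summits, with almost nothing at the start of the gene. The gene of the bile salt export pump (identifier 8647, chromosome 2, 168915390 to 169031324, minus strand) held no H3K4me3 summit, and the nearest to its start, 4004 bp before it, scored 4.36. One H3K27ac summit of 4.11 lay 740 bp before the start. The window nevertheless held 25 H3K27ac and 35 H3K4me1 summits, a density above that of 89.4% and 91.8% of protein-coding genes. Of these summits 9 and 19 lay inside ABCB11, and others lay at or inside the neighbouring gene DHRS9. H3K27ac reached 49.8 at 18717 bp inside the gene, with H3K4me1 117 bp away. It reached 56.1 at position -19925 bp relative to the start, with a weak H3K4me1 summit (1.62) 228 bp away. That site lay nearer to the neighbouring gene DHRS9, 15828 bp from its boundary, and which gene it belongs to was not tested. The strongest H3K4me3 summits of the window belonged to neighbours, 86.1 at SPC25, a kinetochore gene, and 59.7 inside DHRS9, a retinol dehydrogenase gene. DHRS9 itself carried H3K27ac (10.8) and H3K4me1 (11.1) at its start beside H3K4me3.

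The 250 bases before the ABCB11 start (minus strand, chr2:169031325-169031574) are shown as the case with surrounding H3K27ac and no H3K4me3. They hold 2 CpG dinucleotides. Capitals mark a match to the AP-1 search letters (TGAATCA), whose first base lies 189 bases before the start. Capitals also mark a C/EBP element on the opposite strand at 52.

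ABCB11: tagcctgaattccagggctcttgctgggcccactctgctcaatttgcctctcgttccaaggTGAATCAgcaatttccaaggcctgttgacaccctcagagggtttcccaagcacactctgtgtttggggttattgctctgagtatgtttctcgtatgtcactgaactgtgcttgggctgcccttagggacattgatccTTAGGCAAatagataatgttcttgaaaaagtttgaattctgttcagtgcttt

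ABCG5 and ABCG8, the subunit genes of the sterol exporter, had no H3K4me3 or H3K27ac near their common start region. They lie head to head on chromosome 2 (ABCG5, identifier 64240, 43806211 to 43839231, minus strand; ABCG8, identifier 64241, 43838971 to 43882988, plus strand), and their listed starts are 132 bp apart. From the ABCG5 start the nearest H3K4me3 summit was 63257 bp away, with a score of 1.83, and the nearest H3K27ac summit 32425 bp away, with a score of 2.82. The window of ABCG8 held no H3K4me3 summit. H3K4me1 was present in both windows with 11 summits each, most of them the same ones. It was densest at the far end of ABCG5, where 5 summits with scores from 4.58 to 10.1 lay within 2533 bp of the lower gene boundary. Outside the genes, DYNC2LI1, a dynein subunit gene that overlaps ABCG5, carried H3K4me3 of 67.7 and H3K27ac of 16.7 at its start.

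**Figure D2:**
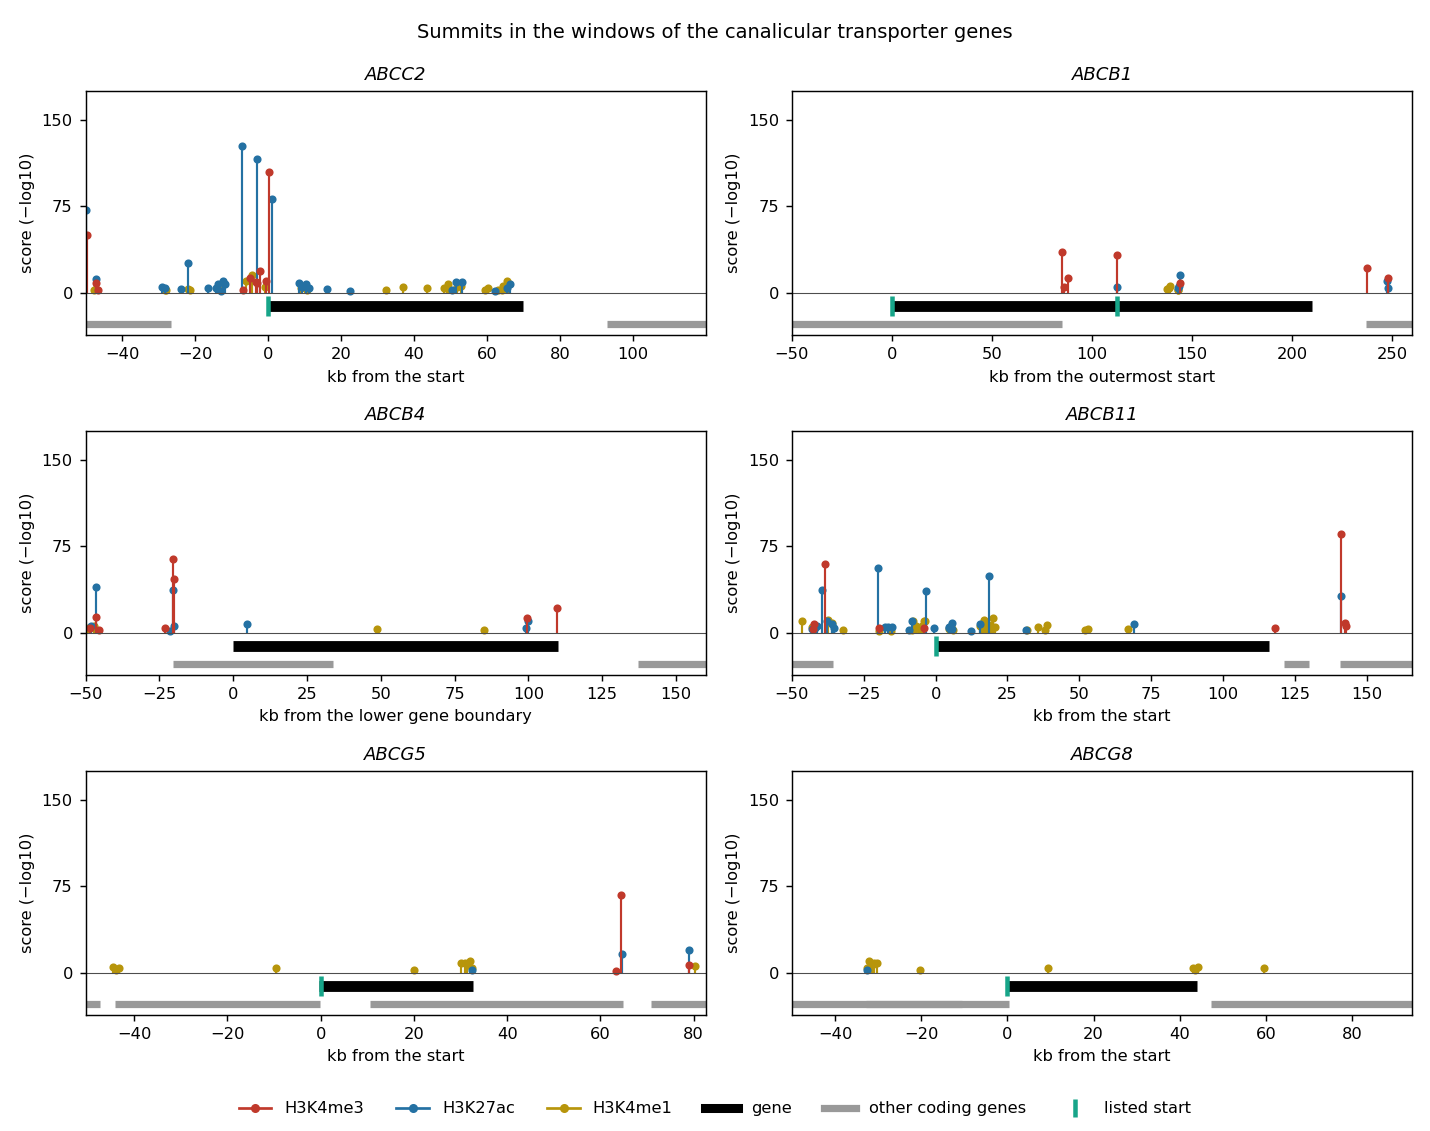
Summit scores (−log10, y axis) against distance from the gene start in kb (x axis; for ABCB1 from the outer start, for ABCB4 from the lower gene boundary, as no start is listed) in the gene and 50000 bp each side, for the 6 canalicular transporter genes. Each stem is a summit, black bars are the genes, grey bars other protein-coding genes and green ticks listed starts; ABCC2 has H3K27ac of 127.0, 116.0 and 81.5 around its H3K4me3 of 104.7, ABCB11 has H3K27ac up to 56.1 away from its start, and ABCG8 has H3K4me1 summits up to 10.1 and 1 H3K27ac summit of 2.82.

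Among the basolateral genes ABCC3 had more summits of each mark in its window than any other of the 10 genes. Within the gene itself it held 3 H3K4me3 summits, where ABCB1 held 5. The gene (identifier 8714, chromosome 17, 50634881 to 50692253) had H3K4me3 of 75.9 at 731 bp inside its lower boundary and H3K27ac of 71.7 at 203 bp outside it. Its window held 23 H3K4me3, 29 H3K27ac and 57 H3K4me1 summits. These densities exceeded those of 97.1%, 97.4% and 99.7% of protein-coding genes. With 500000 bp on each side the densities were 6.24, 7.85 and 14.7 per 100000 bp, against 3.44, 4.49 and 6.84 on chromosome 17. Inside the gene, 26089 bp from the lower boundary, H3K27ac reached 145.3, above 99.9% of that list, and a further summit of 80.9 followed at 27521 bp. H3K4me1 lay 479 bp and 26 bp from these summits, and the nearest H3K4me3 lay 20605 bp and 22037 bp away. A site at 6175 bp joined H3K4me1 of 21.9, the highest H3K4me1 score of all 10 windows, to H3K27ac of 54.5 at a distance of 37 bp.

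Other strong summits of the window lay outside ABCC3. The highest H3K27ac score of all 10 windows, 162.8, lay 1377 bp from the upper boundary of ABCC3 and 432 bp from a boundary of ANKRD40, a coding gene 945 bp away. It was not at the start of ANKRD40, where the best H3K27ac score was 50.2, and which gene it belongs to was not tested. LUC7L3, a splicing factor gene, carried H3K4me3 of 99.2 and H3K27ac of 70.5. On the other side CACNA1G, a calcium channel gene, had no score above 6.82 within 1000 bp of a start or boundary. That H3K27ac summit lay 361 bp from its upper boundary, the one that faces ABCC3.

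SLC10A1, SLCO1B1 and SLCO1B3 had no mark at their starts. The window of SLC10A1 (identifier 6554, chromosome 14, 69775416 to 69797241, minus strand) held 2 H3K4me3, 2 H3K27ac and no H3K4me1 summits, and the stronger pair, H3K4me3 of 64.4 and H3K27ac of 41.8, lay at the boundary of SRSF5, a splicing factor gene. None lay inside SLC10A1. SLCO1B1 (identifier 10599, chromosome 12, 21131194 to 21239796, plus strand) had a single summit in its window, H3K4me3 of 6.65 at position -42725 bp relative to the start, inside the readthrough gene SLCO1B3-SLCO1B7. SLCO1B3 (identifier 28234, chromosome 12, 20810705 to 20916911, plus strand) also had a single one, H3K4me3 of 4.29 at 11491 bp after the start. From the SLCO1B1 start the nearest H3K27ac summit was 288392 bp away and the nearest H3K4me1 summit 507895 bp away.

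The emptiness of the SLCO1B windows extended beyond them. With 500000 bp on each side, SLCO1B3 had 0.271 H3K27ac and no H3K4me1 summits per 100000 bp, and SLCO1B1 had 0.812 and 0.992. Chromosome 12 as a whole, up to its last annotated gene boundary, had 2.82 and 4.01. Around SLC10A1 the same stretch held 1.57 H3K27ac and 3.13 H3K4me1 summits per 100000 bp, against 1.88 and 1.80 on chromosome 14. The lack of H3K4me1 at SLC10A1 was thus limited to its nearer surroundings.

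The 250 bases before the starts of the uptake genes are shown as the basolateral members with no mark there, a state that ABCG5 and ABCG8 share. SLCO1B1 (plus strand, chr12:21130944-21131193) and SLCO1B3 (plus strand, chr12:20810455-20810704) are paralogues, and their windows aligned with 76.8% identity over 228 bases, against 38.4% to 52.2% in 20 other pairs of member promoters. Neither holds a CpG dinucleotide, and the window of SLC10A1 (minus strand, chr14:69797242-69797491) holds 1. Capitals mark opposite-strand CCAAT boxes in both SLCO1B windows, a nuclear receptor element on the opposite strand in SLCO1B3, and a nuclear receptor element followed by a C/EBP element in SLC10A1.

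SLCO1B1: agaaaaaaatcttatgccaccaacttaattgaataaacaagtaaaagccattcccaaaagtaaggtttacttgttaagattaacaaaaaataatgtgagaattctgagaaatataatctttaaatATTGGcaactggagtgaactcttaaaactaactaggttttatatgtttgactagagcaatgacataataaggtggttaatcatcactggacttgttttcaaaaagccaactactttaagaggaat
SLCO1B3: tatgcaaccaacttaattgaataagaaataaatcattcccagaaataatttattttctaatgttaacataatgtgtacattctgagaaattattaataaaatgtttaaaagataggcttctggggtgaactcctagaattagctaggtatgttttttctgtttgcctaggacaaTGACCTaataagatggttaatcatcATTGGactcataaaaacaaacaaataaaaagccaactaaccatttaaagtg
SLC10A1: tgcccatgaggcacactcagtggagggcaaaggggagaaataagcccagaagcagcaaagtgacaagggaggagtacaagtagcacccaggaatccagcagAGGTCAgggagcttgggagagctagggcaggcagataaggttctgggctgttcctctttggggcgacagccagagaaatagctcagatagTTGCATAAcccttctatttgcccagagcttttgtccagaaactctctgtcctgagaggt

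**Figure D3:**
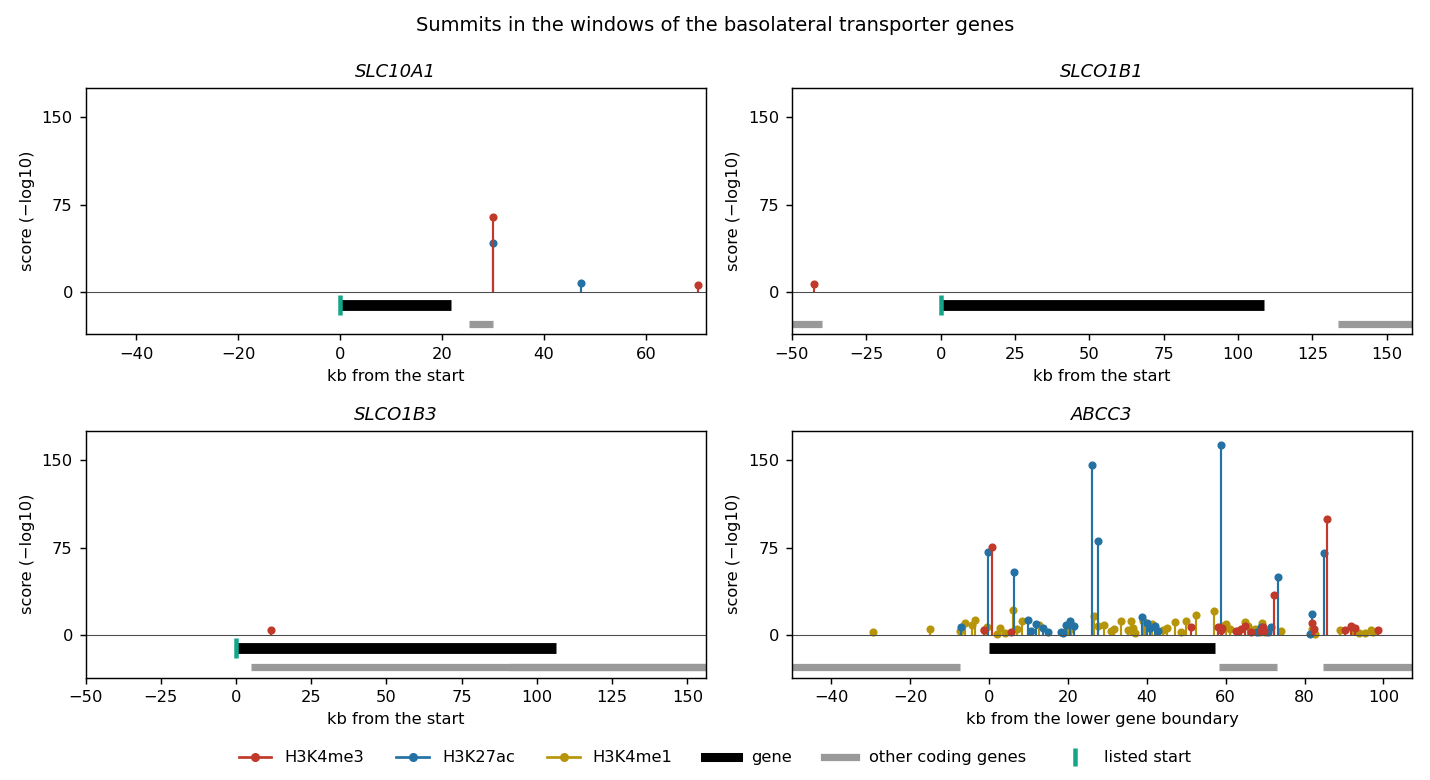
Summit scores (−log10, y axis) against distance from the gene start in kb (x axis; for ABCC3 from the lower gene boundary, as no start is listed) in the gene and 50000 bp each side, for the 4 basolateral transporter genes, drawn as for the canalicular genes. SLCO1B1 and SLCO1B3 have 1 low H3K4me3 summit each (6.65 and 4.29), 2 of the 4 summits near SLC10A1 lie at SRSF5, and ABCC3 has 109 summits, with H3K27ac of 145.3 inside the gene.

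Canalicular against basolateral genes gave no clear difference in density. The basolateral side joined the window of ABCC3, the fullest, with those of SLCO1B1 and SLCO1B3, which held 1 summit each over all marks. After overlapping windows were merged, the canalicular genes had 35 H3K4me3, 67 H3K27ac and 84 H3K4me1 summits in 1010068 bp, and the basolateral genes 27, 31 and 57 in 694009 bp. Per 100000 bp, H3K4me3 came to 3.47 (95% Poisson interval for counting error 2.41 to 4.82) against 3.89 (2.56 to 5.66). H3K27ac came to 6.63 (5.14 to 8.42) against 4.47 (3.03 to 6.34), and H3K4me1 to 8.32 (6.63 to 10.3) against 8.21 (6.22 to 10.6). The intervals overlapped for each mark. Summits of 1 library are not replicates, so the intervals say nothing about the spread between cultures. They also take summits as independent, although summits cluster by gene, so their overlap or separation is no test of the classes.

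Without ABCC3, the 3 uptake genes had 0.745 H3K4me3 (0.203 to 1.91), 0.373 H3K27ac (0.0451 to 1.35) and 0 H3K4me1 summits per 100000 bp (up to 0.687). These intervals lay below the canalicular ones. Summits cluster by gene, and SLCO1B1 and SLCO1B3 lie on the same chromosome, so this describes 3 genes and tests no class. Of the 6 summits of the uptake genes, 2 were those at SRSF5. ABCC3 alone had 14.6, 18.4 and 36.2. On the canalicular side, leaving out ABCC2 lowered H3K27ac to 4.76 and H3K4me1 to 6.78, the latter below the basolateral value, while H3K4me3 went to 2.98. The high basolateral values were thus those of ABCC3. Low values were not limited to the uptake genes, since canalicular ABCG8 had 0 H3K4me3 and 0.694 H3K27ac summits per 100000 bp, below the 1.64 of SLC10A1 for each of these marks.

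**Figure D4:**
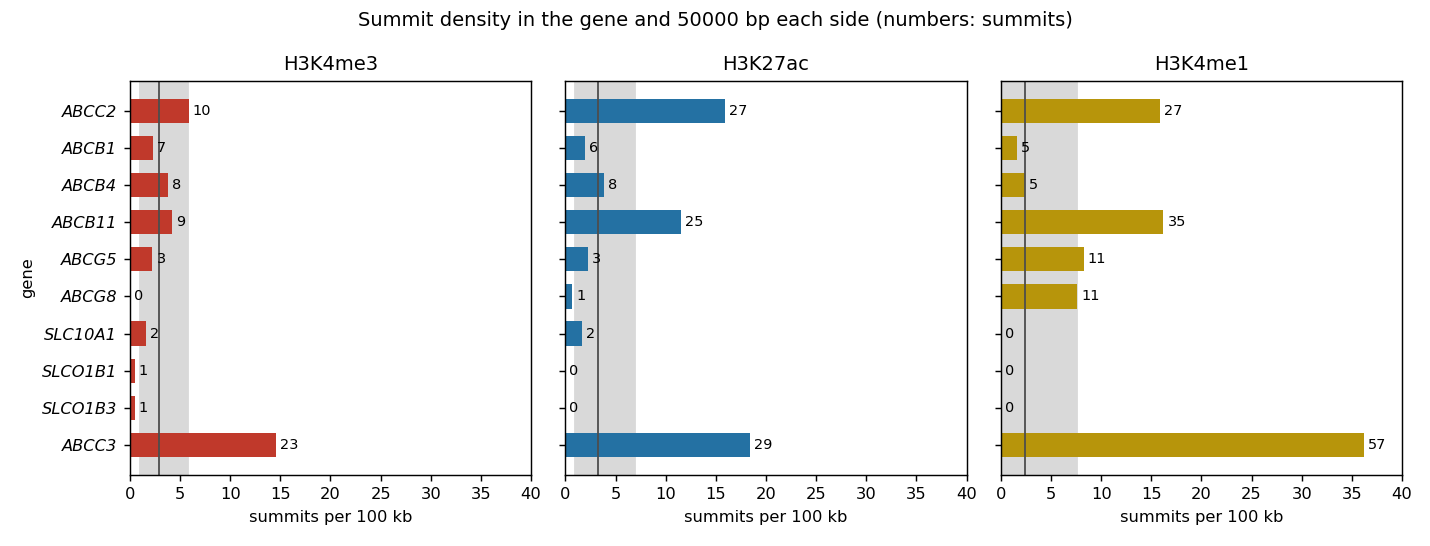
Summits per 100000 bp (x axes) in the gene and 50000 bp each side for each transporter gene (y axis), by mark, with the number of summits beside each bar; the line is the median and the grey band the middle 50% of all protein-coding genes. ABCC3 (14.6, 18.4 and 36.2) and ABCC2 (5.88, 15.9 and 15.9) lie above the band for each mark, ABCB11 for H3K27ac and H3K4me1, ABCG5 and ABCG8 for H3K4me1, and the 3 uptake genes lie below the median for each mark.

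The median density of the 10 genes lay below that of all protein-coding genes for H3K4me3 and H3K27ac, and above it for H3K4me1. The median over the 10 genes was 2.26 H3K4me3 and 2.09 H3K27ac summits per 100000 bp, against 2.89 and 3.30 over all protein-coding genes, and 4 of the 10 lay above that median for each of these marks. For H3K4me1 the median was 5.01 against 2.43, with 5 of 10 above. A median divides all genes evenly, so these counts are not read as a property of the 10 genes. Pooled over the merged windows, the densities were 3.64 H3K4me3, 5.75 H3K27ac and 8.27 H3K4me1, each above the median of all protein-coding genes. A pooled density is a mean weighted by length, in which the fullest windows count most, and is an unlike measure to a median over genes. ABCC2, ABCB11 and ABCC3 were above the median for all 3 marks. ABCB4 was above it for H3K4me3 and H3K27ac, and ABCG5 and ABCG8 for H3K4me1. ABCB1 lay below it for each mark (2.26, 1.93 and 1.61).

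Away from gene boundaries, H3K27ac in these windows was accompanied by H3K4me1 about as often as elsewhere in the list. Counting each summit once, 75 H3K27ac summits lay over 2500 bp from every gene boundary, and 49 of them had H3K4me1 within 1000 bp (65.3%, 95% Wilson interval 54.1 to 75.1), against 65.9% of all 43996 such summits. ABCC2 contributed 13 of 22, ABCC3 16 of 22 and ABCB11 15 of 20. The highest paired score of each of these windows was 145.3 in ABCC3, 127.0 before ABCC2 and 56.1 before ABCB11. The last of these lay nearer to DHRS9 than to ABCB11, and its H3K4me1 partner scored 1.62. Distance was taken from gene boundaries, so that the 6 summits counted for ABCB1 include the one 150 bp from its inner start. Of these 6 and of the 5 for ABCB4, 5 and 4 had H3K4me3 within 1000 bp. SLCO1B1, SLCO1B3 and ABCG8 had no distal H3K27ac summit.

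The CpG number of the start was compared with H3K4me3, since CpG-rich starts commonly carry this mark. Of 22132 listed starts of protein-coding genes, those with 0 or 1 CpG in the 250 bases before the start had an H3K4me3 summit within 1000 bp in 8.36% of cases, those with 2 to 5 in 19.1%, those with 6 to 14 in 50.7% and those with 15 or more in 78.6%. None of the 9 listed starts of the members had 15 or more. SLCO1B1 and SLCO1B3 had 0, ABCC2, SLC10A1 and the outer ABCB1 start 1 each, ABCB11 2, ABCG5 and ABCG8 8 each and the inner ABCB1 start 12. ABCC2 was the only start with fewer than 12 that carried H3K4me3. ABCG5 and ABCG8, whose GC content was 62.8% and 62.4%, fell in the class where 50.7% carried the mark, and did not. The part of CpG content in the counts of marked members was not tested.

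**Figure D5:**
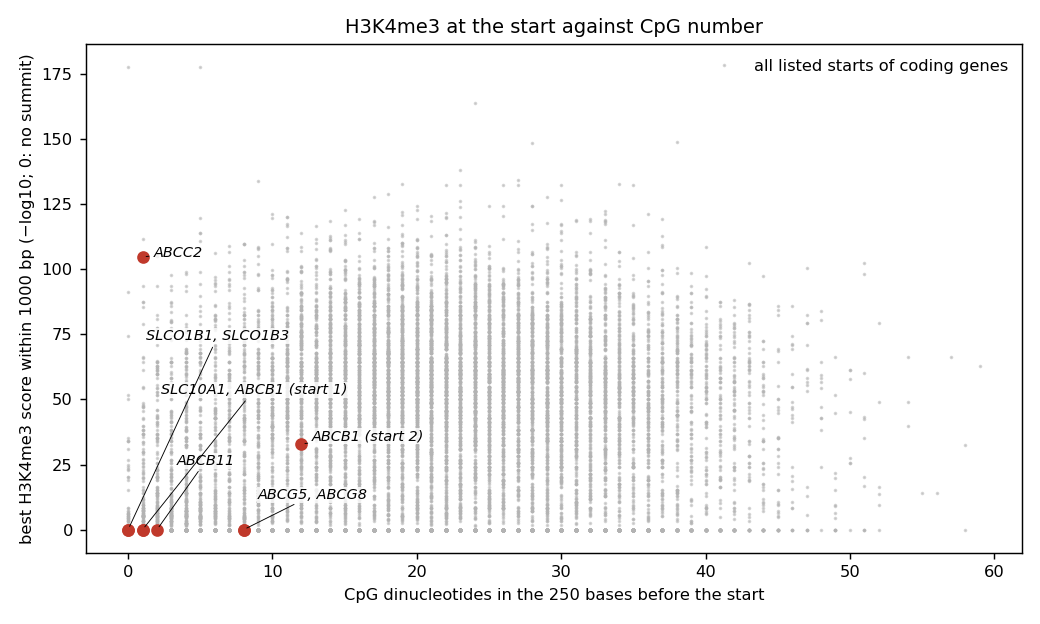
Best H3K4me3 score within 1000 bp of the start (−log10, y axis; 0 for no summit) against the number of CpG dinucleotides in the 250 bases before it (x axis). Grey points are 22132 listed starts of protein-coding genes and red points the 9 listed starts of 8 transporter genes; ABCC2 stands at 1 CpG with a score of 104.7, the inner ABCB1 start (start 2) at 12 CpG with 32.9, and the other 7 starts have no summit.

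Motif matches describe letters in these windows and no binding. The search took 8 motifs on both strands in the 250 bases before each listed start, with the share of all 22132 windows that hold each. They were the HNF4 element CAAAGTCCA (0.307%), the nuclear receptor element AGGTCA (10.5%), the FOXA element TGTTTAC (2.45%), the C/EBP element TTGCNNAA (7.50%), the AP-1 element TGANTCA (5.35%), the NRF2 element TGACNNNGC (11.2%), the CCAAT box (32.7%) and the SP1 element GGGCGG (53.7%). CCAAT boxes on the opposite strand lay at 125 bases before the SLCO1B1 start and at 51 before that of SLCO1B3. The AP-1 letters leave the centre base open, and their matches were TGATTCA at the inner ABCB1 start and TGAATCA at ABCB11. C/EBP elements were found at ABCB11 and SLC10A1. No member window held the HNF4, FOXA, NRF2 or SP1 letters, which says nothing about those factors elsewhere.

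Other genes of bile acid and drug handling were read by the same rule from 4 further lists, 29 genes in all. H3K4me3 and H3K27ac lay at the same start in 12 of them, against 50.0% of all protein-coding genes. Of 9 other basolateral transporter genes 3 had the pair. The highest H3K4me3 scores among them were 26.6 for ABCC6 and 22.8 for ABCC4, both exporters. SLC51A, a subunit of the basolateral bile acid exporter, and SLCO2B1, an organic anion carrier, had no H3K4me3 at the start. SLCO2B1 did carry H3K27ac (24.8) and H3K4me1 (8.07) there. All 4 other canalicular genes had H3K4me3 and 2 had the pair, ABCG2, a drug exporter, and ATP8B1, a lipid flippase, each with H3K4me3 of 64.4.

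Of 6 genes of bile acid synthesis and conjugation, CYP27A1, a sterol hydroxylase gene, had the pair, with H3K4me3 of 42.9 and H3K27ac of 59.0. CYP7A1 and CYP8B1, which encode enzymes of the classical synthesis route, carried no summit at a boundary and held none inside. With 50000 bp on each side, CYP7A1 still had none. CYP8B1 then had 2 H3K4me3 summits (best score 24.2) and 2 H3K4me1 summits (best score 6.30), and no H3K27ac summit. Among 10 regulator genes 6 had the pair, against 50.0% of all protein-coding genes. They included NFE2L2 (H3K4me3 of 85.8), which encodes the antioxidant response factor NRF2, and HNF4A (71.9). NR1H4, which encodes the bile acid receptor FXR, had H3K4me3 of 33.6 and H3K27ac of 31.2. NR0B2 and NR1I3, which encode the receptors SHP and CAR, had no H3K4me3 at the start. NR1H4 and HNF4A, whose products are known to act on bile acid transporter genes, were among those with the pair. Of the 10 transporter genes, ABCB1 and ABCC3 had it within 1000 bp, and 3 genes had it within 2500 bp. A link between the marks of the regulators and those of the transporter genes was not tested.

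The label of the cells was set against hepatocyte markers. Of 7 marker genes of mature hepatocytes, TF had H3K4me3 with H3K27ac at a start, 3 had H3K4me3, while ALB, APOA2 and TTR held none of the marks within their limits. Of 3 lineage factor genes, HNF4A and CEBPA had the pair and FOXA2 had H3K27ac of 3.66 without H3K4me3 at a boundary. Of 4 cholangiocyte markers SOX9 had the pair, and of 4 markers of other liver cells none did, although PECAM1 (43.9) and LYVE1 (8.99) had H3K27ac at a start or boundary. The epithelial genes KRT8 and KRT18 had the pair, and CDH1 had H3K4me3 of 17.7. APOA1 (H3K4me3 of 1.80), FGB (H3K4me3 of 20.2) and SERPINA1 (H3K27ac of 3.67) carried a mark at a start or boundary. The 3 of 7 with no mark in the gene stand beside 28.4% of all protein-coding genes, and the part of cell state in the transporter values was not tested.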

How the data were processed

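ChIP-seq of H3K4me3, H3K27ac and H3K4me1 was made in MHCC97L cells, with 1 library per mark. The authors deposited 1 summit list per library, each line a 1 bp position with a score that is a −log10 of a p-value or q-value. Bowtie, Picard, deepTools and MACS2 on hg38 are named per the submitters' processing notes; which versions and options were used, and the role of the input in peak calling, are not stated there. No list was pooled over replicates.

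Summits on chromosomes 1 to 22 and X were used, which left out 185, 273 and 61 in the order of marks above. Gene limits and promoter sequences came from RefSeq on GRCh38.p14, whose chromosome coordinates are those of hg38. Starts were listed for 8 members, and for other genes either boundary within 1000 bp stood in. Densities are summits per 100000 bp of merged windows with exact 95% Poisson intervals, and shares have 95% Wilson intervals, for counting error only. Promoter pairs (all listed starts but those of ABCG5 and ABCG8, whose windows overlap) were aligned globally with Biopython 1.88 (match 1, mismatch -1, gap opening -5, extension -1). Counting was checked on planted summits. Python 3.11.15, pandas 2.3.3 and scipy 1.17.1 were used.

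The members and lists were chosen with earlier results of these data known. Named were all members, genes sharing a boundary with a member, the gene nearest to the highest summit of each mark in each window, and, of each further list, the 2 highest by H3K4me3 at the start and the first 2 without it; other names were added after their values were seen. Alternatives changed the distances, flank, score minimum, class membership and averaging. Proteins, exons and sequence beyond the promoter windows were not used here. Of the further lists and motifs, 1 gene and 1 motif are not reported here.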

Additional observations from a re-analysis of the deposited data

How the results depend on the processing

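Of 75 recomputed values, 51 stayed within 1.5 times the reported count or within its counting interval, and the rest are given here. Within 500 bp of the start, H3K4me3 was found in 2 members (ABCC2 and ABCB1), H3K4me1 in 1 and the pair of H3K4me3 with H3K27ac in 1, fewer because the window was shorter. With a score of at least 10, H3K27ac at the start was left in 1 member, H3K4me1 at the start in 1, the pair in 1 and H3K4me1 in the gene in 4. Summits in the merged windows, each counted once, fell from 62 H3K4me3, 98 H3K27ac and 141 H3K4me1 to 41, 65 and 72 with a score of at least 5 and to 21, 33 and 26 with at least 10. With a flank of 10000 bp there were 30 H3K4me3 and 58 H3K27ac summits, and with 25000 bp 40 H3K4me3 summits. The canalicular minus basolateral density, in summits per 100000 bp, was -0.43 for H3K4me3, 2.17 for H3K27ac and 0.10 for H3K4me1, each with an interval that included 0. Without ABCC3 it became 2.72, 6.26 and 8.32, and as a difference of medians over genes 1.97 for H3K4me3 and 7.95 for H3K4me1. A flank of 10000 bp turned the H3K27ac difference to -0.61, and the cause was not tested. Leaving out ABCC2, chosen after seeing the data, turned the H3K4me1 difference to -1.43. Score minimums of 5 and 10 also turned the signs for H3K4me3 (0.17 and 0.86) and H3K4me1 (-1.87 and -1.07), and flanks of 10000 and 25000 bp that for H3K4me1 (-1.86 and -1.08), so no direction is read from these differences. The share of distal H3K27ac summits with H3K4me1 was 45.3% within 500 bp and 85.3% within 2000 bp. The paired analysis does not apply: no paired analysis was possible because each mark had 1 library. Read depth is unknown, so a missing summit cannot be told from one below the caller's threshold.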

Other observations

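The basolateral bile acid exporter is a dimer of SLC51A and SLC51B, and its subunit genes differed in these lists. SLC51B, named after its values were seen, had H3K27ac of 92.8, H3K4me3 of 19.1 and H3K4me1 of 5.91 within 1000 bp of its start. SLC51A had none of the marks there. Its nearest H3K4me1, H3K4me3 and H3K27ac summits were 1503, 2432 and 51695 bp from the start, and 2 H3K4me3 summits lay inside the gene. ABCC1, a multidrug exporter gene also named after its values were seen, held 31 H3K27ac and 37 H3K4me1 summits, with H3K4me3 of 8.88 at a boundary.

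H3K4me3 beside a start with 0 or 1 CpG was uncommon. Of 1867 such starts of protein-coding genes 156 had an H3K4me3 summit within 1000 bp, with a median best score of 12.0, and 3 reached the ABCC2 value of 104.7: ABCC2 itself, CYP4F11 (177.5), a cytochrome P450 gene, and ZKSCAN5 (111.5), a zinc finger gene. Among 9508 marked starts with 15 or more CpG 160 reached that value. CYP4F11 and ZKSCAN5 had H3K27ac of 127.9 and 99.8 within 1000 bp, where ABCC2 had its nearest at 1096 bp. The 2 genes were named after their values were seen. A start can share its summit with another start close by, which was not separated here.

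At ABCG5 the H3K4me1 summits stood at the end of the gene far from its start, next to an H3K27ac summit of 2.82 at 203 bp from the lower boundary, inside the neighbouring gene DYNC2LI1 as well.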
